A study of Rattus norvegicus with 4 samples.

Results

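The complement genes described here are C1s, C2, C3, C4a, C4b, C6, C7, Cfd and Serping1. They were chosen by gene symbol, and all 9 were found, 1 feature each, among the 25399 genes of a rat single-cell RNA sequencing data set. The files identify C1s as ENSRNOG00000011971, Serping1 as ENSRNOG00000007457, C2 as ENSRNOG00000051235, C4a as ENSRNOG00000047657, C4b as ENSRNOG00000030729, C3 as ENSRNOG00000046834, Cfd as ENSRNOG00000033564, C6 as ENSRNOG00000024115 and C7 as ENSRNOG00000061379. C1s encodes the protease of the first component, Serping1 its inhibitor, C2 and the C4 genes the parts of the convertase that cuts C3, Cfd the factor D protease, and C6 and C7 components of the terminal pathway. The libraries hold total cells released by enzymatic digestion from 2 muscles of rats aged 12 months, the muscles that move the eye (extraocular, EOM) and a muscle of the lower leg (tibialis anterior, TA). There were 4 libraries, EOM labelled DMD, EOM labelled WT, TA labelled DMD and TA labelled WT. DMD is the abbreviation in the labels, which give no allele, strain, sex, number of animals or pooling. In Duchenne muscular dystrophy the protein dystrophin, encoded by Dmd, is missing, and eye muscles stay comparatively intact.

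Complement is a cascade of plasma proteases and the proteins they cut. The classical route starts when C1q binds antibody or a surface and C1r activates C1s, which cuts C4 and C2 into the C3 convertase; C1 inhibitor, the product of Serping1, blocks C1r and C1s. Factor D cuts factor B to build the convertase of the alternative route, and cleaved C3 leads on to the terminal components, C6 and C7 among them, which assemble on membranes. The liver makes most of the circulating protein of many components, though not of all, and fibroblasts and macrophages of other tissues make some components locally.

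Each group had 1 library, so no difference below has a replicate check and none was tested. Groups follow the disease state field of the labels, but the 4 sample titles each give the other disease state. Reading the titles instead would turn round every DMD against WT direction, while the muscle contrasts would keep theirs with the DMD and WT pairs exchanged. Dmd had 22.1 CPM (counts per 1e+06 UMIs of the class or library, 269 UMIs) in all analysed cells of EOM labelled DMD, 26.8 CPM (175 UMIs) in EOM labelled WT, 25.4 CPM (490 UMIs) in TA labelled DMD and 29.6 CPM (199 UMIs) in TA labelled WT. By class Dmd differed more in places. In Schwann-like cells it had 122 and 227 CPM in EOM labelled DMD and WT and 117 and 385 CPM in TA labelled DMD and WT. In mural-like cells it had 40.8 and 60.3 CPM in EOM labelled DMD and WT and 36.5 and 63.4 CPM in TA labelled DMD and WT. Satellite-like cells had 72.3 and 66.9 CPM of Dmd in EOM labelled DMD and WT and 72.4 and 126 CPM in TA labelled DMD and WT, whereas myofibre-like cells of TA had 81.9 CPM (21 UMIs in 4 cells) labelled DMD and 4.37 CPM (1 UMI) labelled WT. A 3' tag need not lie in the altered part of Dmd, so the labels cannot be checked from it. After filtering, EOM labelled DMD held 2261 cells with 12152568 UMIs (unique molecular identifiers, which count captured transcripts) and EOM labelled WT 1249 cells with 6522117. TA labelled DMD held 7964 cells with 19269545 UMIs and TA labelled WT 2083 cells with 6730142. The median cell held 4488 and 3650 UMIs in EOM labelled DMD and WT and 1224 and 2484 in TA labelled DMD and WT, and between 0 and 5 barcodes were shared by any pair of libraries. Intervals in parentheses after a level, share or fold are 95% intervals that cover counting error only.

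Cells were grouped into classes without using the complement genes, and the classes carry the name of the markers they hold. FAP/fibroblast-like cells (fibro-adipogenic progenitors and fibroblasts, the connective tissue cells of muscle) numbered 686 and 231 in EOM labelled DMD and WT, 1412 in TA labelled DMD and 16 in TA labelled WT. All 11 fibroblast markers were counted in the 3 larger samples, where they summed to 70970 and 81802 CPM in EOM labelled DMD and WT and 51606 CPM in TA labelled DMD. In the 16 cells of TA labelled WT they summed to 28341 CPM beside 9356 CPM of myofibre markers, so this small sample is given only in passing. Macrophage/monocyte-like cells numbered 138 and 41 in EOM labelled DMD and WT and 568 and 18 in TA labelled DMD and WT. A class entered a contrast only with at least 50 cells in both libraries, so levels of fibroblast-like and macrophage-like cells could not be set between TA labelled DMD and TA labelled WT, and macrophage-like levels could not be set within EOM.

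Start site regions of 5 of the 9 genes matched the RefSeq table (rat assembly GRCr8, 250 bases before the start and 50 after, on the gene's strand), and those of C1s, C2, C7 and Serping1 had no entry. They are shown because C4a and C4b are near-identical copies that the files count apart, and because C3, Cfd and C6 are the members with most of their UMIs in macrophage-like cells of EOM labelled DMD. Capitals mark CACGTG in C4a and C4b, TTGCNNAA in C3 and C6 (on either strand), GGGCGG in Cfd (on the other strand) and TATAAA in C6. The regions are chr20:4010107-4010406 (+) for C4a, chr20:4201729-4202028 (+) for C4b, chr9:2201290-2201589 (-) for C3, chr7:10465447-10465746 (-) for Cfd and chr2:55573383-55573682 (+) for C6.
C4a: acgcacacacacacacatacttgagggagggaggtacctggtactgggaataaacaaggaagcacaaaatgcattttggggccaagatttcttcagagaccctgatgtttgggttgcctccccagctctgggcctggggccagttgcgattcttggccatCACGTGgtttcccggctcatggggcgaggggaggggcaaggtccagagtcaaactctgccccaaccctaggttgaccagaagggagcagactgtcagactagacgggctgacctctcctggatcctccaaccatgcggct
C4b: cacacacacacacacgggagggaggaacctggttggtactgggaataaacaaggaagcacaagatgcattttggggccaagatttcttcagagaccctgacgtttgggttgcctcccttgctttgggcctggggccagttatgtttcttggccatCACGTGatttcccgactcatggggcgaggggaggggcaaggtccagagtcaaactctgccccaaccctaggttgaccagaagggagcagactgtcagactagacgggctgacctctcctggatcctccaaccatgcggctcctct
C3: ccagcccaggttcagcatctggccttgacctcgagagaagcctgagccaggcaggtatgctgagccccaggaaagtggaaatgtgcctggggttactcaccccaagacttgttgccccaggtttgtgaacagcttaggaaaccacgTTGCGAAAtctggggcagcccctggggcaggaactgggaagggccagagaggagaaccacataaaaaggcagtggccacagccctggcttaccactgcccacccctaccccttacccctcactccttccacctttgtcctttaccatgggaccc
Cfd: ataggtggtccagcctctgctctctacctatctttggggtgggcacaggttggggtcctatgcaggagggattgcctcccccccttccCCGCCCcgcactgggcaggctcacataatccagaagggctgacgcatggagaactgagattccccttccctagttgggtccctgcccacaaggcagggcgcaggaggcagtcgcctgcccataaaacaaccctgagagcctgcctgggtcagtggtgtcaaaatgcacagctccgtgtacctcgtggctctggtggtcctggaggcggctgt
C6: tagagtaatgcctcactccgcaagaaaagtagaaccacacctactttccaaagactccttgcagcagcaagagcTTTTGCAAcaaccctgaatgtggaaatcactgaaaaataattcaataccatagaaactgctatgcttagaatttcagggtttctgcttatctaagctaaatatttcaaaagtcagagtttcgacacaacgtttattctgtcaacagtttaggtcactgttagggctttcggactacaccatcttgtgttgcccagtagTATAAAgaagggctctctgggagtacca

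The C4a and C4b regions aligned over 295 bases with 276 identical (93.6%), and their longest identical run was 125 bases. CACGTG, an E-box, is held by 6.42% of the 33469 start site regions in the table, TTGCNNAA, a C/EBP-type motif, by 10.6%, GGGCGG, the GC box, by 33.1% and TATAAA by 14.2%, with both strands searched. GAGGAA, a PU.1-type motif held by 27.6% of regions, was found in C4b alone of the 5, and TTCNNNGAA, held by 8.87%, in none of them. These are matches of letters in one window and say nothing of the factors named. Reads of C4a and C4b can be lost or assigned to the wrong copy where they are alike, so the split between these genes is uncertain. The likeness of their 3' ends, where the tags lie, was not compared.

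In EOM labelled DMD, C1s, C2, C4a, C4b, C7 and Serping1 were counted mostly in fibroblast-like cells and C3, C6 and Cfd mostly in macrophage-like cells, and the other libraries departed from this in several genes. Of all C1s UMIs, fibroblast-like cells held 87.9% in EOM labelled DMD, 85.8% in EOM labelled WT and 73.3% in TA labelled DMD, but 5.13% in TA labelled WT, where satellite-like cells held 73.1%. They held 84.8% and 81.9% of Serping1 UMIs in EOM labelled DMD and WT and 53.7% in TA labelled DMD, while in TA labelled WT mural-like cells held 61.3%. For C7 the fibroblast-like share was 91.9% and 84.0% in EOM labelled DMD and WT and 34.9% in TA labelled DMD, where mural-like cells held 52.0%. The class held 97.2% and 96.9% of C4a UMIs in EOM labelled DMD and WT and 67.1% in TA labelled DMD, and for C4b it held 96.2% and 96.6% in EOM labelled DMD and WT and 72.5% in TA labelled DMD. TA labelled WT had 1 C4a UMI and 5 C4b UMIs in all, none of them in fibroblast-like cells. Macrophage-like cells held 93.8% and 93.4% of Cfd UMIs in EOM labelled DMD and WT, and 62.3% and 87.1% in TA labelled DMD and WT. They held 57.4% and 88.9% of C3 UMIs in EOM labelled DMD and WT, and 67.7% and 93.8% in TA labelled DMD and WT. For C6 they held 289 of 302 UMIs in EOM labelled DMD, 7 of 17 in EOM labelled WT, 7 of 11 in TA labelled DMD and 0 of 2 in TA labelled WT. These shares depend on how many cells of each class a library holds as well as on the level per cell.

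**Figure D1:**
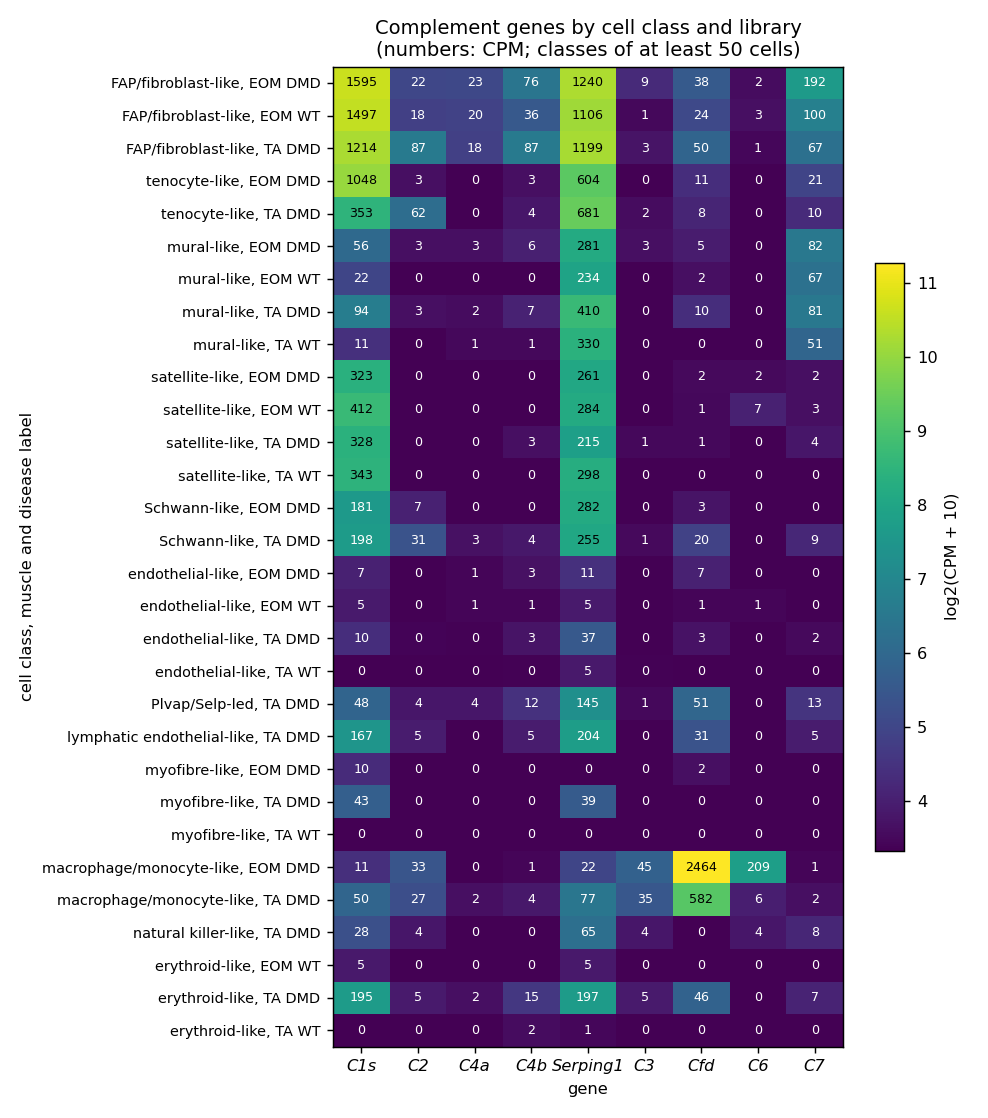
Level of each of the 9 complement genes (log2 of CPM plus 10) by cell class and library, for classes with at least 50 cells in the library. C1s and Serping1 are highest in fibroblast-like cells, at 1595 and 1240 CPM in EOM labelled DMD, and Cfd in macrophage-like cells, at 2464 CPM in the same library.

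C1s, the protease that cuts C4 and C2, was counted in most fibroblast-like cells of both muscles. In EOM the level was 1595 CPM (1559 to 1632, 7382 UMIs) for the library labelled DMD and 1497 CPM (1437 to 1559, 2356 UMIs) for the one labelled WT. It was 1214 CPM (1175 to 1253, 3752 UMIs) in TA labelled DMD. The 16 fibroblast-like cells of TA labelled WT held 8 C1s UMIs, 181 CPM. The 3 larger samples of this class were thus within a narrow range, and the level with 16 cells was far below them. At least 1 C1s UMI was present in 91.8% of fibroblast-like cells of EOM labelled DMD at a median depth of 7016.5 UMIs, in 93.1% of EOM labelled WT at 6891 and in 55.9% of TA labelled DMD at 942. Endothelial-like cells, which line vessels and are the comparison for free RNA, had a C1s UMI in 1.61% of cells of EOM labelled DMD at a median of 2556 UMIs and in 2.15% of cells of TA labelled DMD at 1691.5. With every cell thinned to 1000 UMIs, the fibroblast-like share was 74.1% in both EOM labelled DMD (646 cells deep enough) and EOM labelled WT (220 cells), and 59.0% in TA labelled DMD (661 cells).

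Serping1, which encodes the inhibitor of C1s and C1r, had nearly the same level in the 3 large samples of fibroblast-like cells. It had 1240 CPM (1208 to 1273, 5739 UMIs) in EOM labelled DMD, 1106 CPM (1054 to 1159, 1740 UMIs) in EOM labelled WT and 1199 CPM (1161 to 1238, 3706 UMIs) in TA labelled DMD. EOM over TA in the libraries labelled DMD it was 1.03-fold (0.992 to 1.08), an interval that includes no difference, whereas C1s was 1.31-fold (1.26 to 1.37). C1r, the protease that activates C1s, had 1620 and 1559 CPM in these cells of EOM labelled DMD and WT and 1210 CPM in TA labelled DMD. C1s made up 49.6% and 49.0% of the C1s and C1r UMIs in EOM labelled DMD and WT and 50.1% in TA labelled DMD, so these companions kept the same balance in all 3 libraries.

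**Figure D2:**
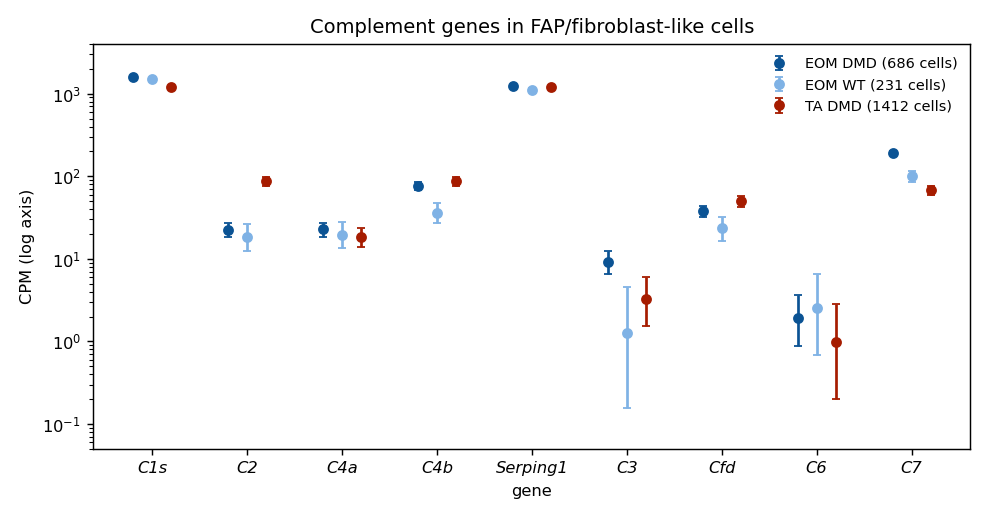
Levels of the 9 genes in fibroblast-like cells (CPM on a log axis) in EOM labelled DMD, EOM labelled WT and TA labelled DMD, with 95% counting intervals. C1s and Serping1 lie within a narrow range, C7 is highest in EOM labelled DMD at 192 CPM, and C2 is highest in TA labelled DMD at 86.7 CPM.

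The balance of protease and inhibitor differed between cell classes. As a share of C1s and Serping1 UMIs together, C1s made up 56.3% (55.4 to 57.1) in fibroblast-like cells of EOM labelled DMD and 57.5% (56.0 to 59.0) in those of EOM labelled WT. In TA labelled DMD it made up 50.3% (49.2 to 51.4). Satellite-like cells, the stem cells of muscle, had 55.3% and 59.2% in EOM labelled DMD and WT and 60.5% and 53.5% in TA labelled DMD and WT. Mural-like cells, the pericytes and smooth muscle of vessel walls, leaned to the inhibitor, with 16.6% and 8.49% in EOM labelled DMD and WT and 18.7% and 3.35% in TA labelled DMD and WT. Tenocyte-like cells, the fibroblasts of tendon, differed between muscles, with 63.4% (59.5 to 67.2) in EOM labelled DMD and 34.1% (30.1 to 38.3) in TA labelled DMD.

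**Figure D3:**
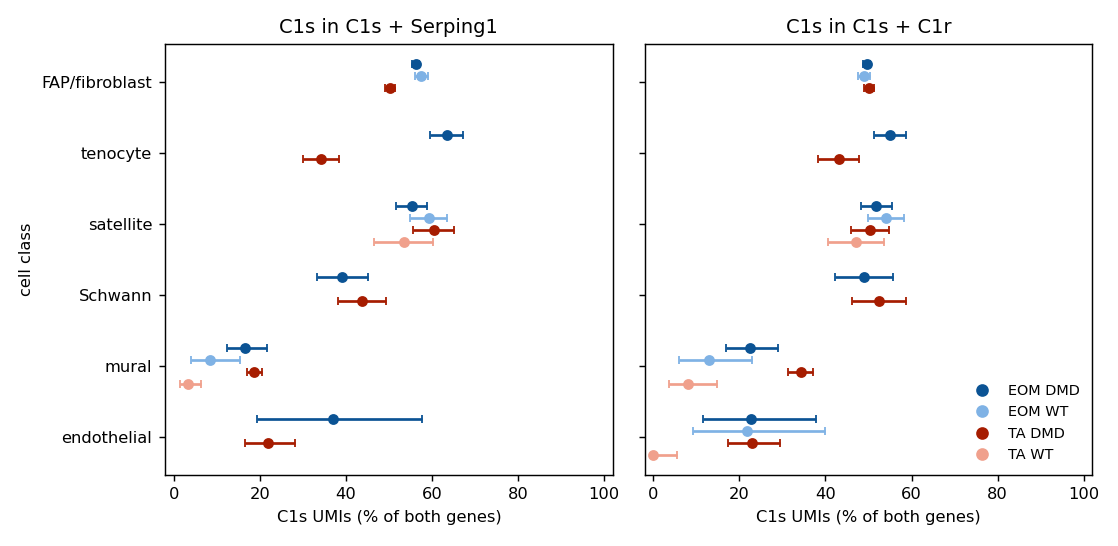
C1s as a percent of the UMIs of C1s and Serping1 together (left) and of C1s and C1r together (right), by cell class and library, with exact 95% binomial intervals. Against Serping1, fibroblast-like and satellite-like cells lie between 50.3% and 60.5%, and mural-like cells between 3.35% and 18.7%.

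Satellite-like cells held both genes at similar levels in all 4 libraries. In EOM, C1s had 323 CPM (292 to 356) labelled DMD and 412 CPM (368 to 460) labelled WT. In TA it had 328 CPM (289 to 371) labelled DMD and 343 CPM (283 to 412) labelled WT. Serping1 had 261 and 284 CPM in EOM labelled DMD and WT, and 215 and 298 CPM in TA labelled DMD and WT. No contrast of either gene in this class reached 2-fold, and DMD over WT was 0.783-fold (0.674 to 0.911) for C1s in EOM and 0.958-fold (0.765 to 1.21) in TA. All 4 satellite-like samples had at least 56 cells, in 2 clusters. The shallow one, with a median of 895 UMIs, held 243 of the 305 cells of TA labelled DMD and 6 of the 56 cells of TA labelled WT. In the deeper one, C1s had 400 CPM (342 to 465, 62 cells) in TA labelled DMD and 351 CPM (289 to 421, 50 cells) in TA labelled WT.

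In mural-like cells C1s was low, and it was higher in the DMD-labelled library of each muscle. It had 56.0 CPM (44 UMIs) in EOM labelled DMD, 21.7 CPM (9 UMIs) in EOM labelled WT, 94.2 CPM (361 UMIs) in TA labelled DMD and 11.4 CPM (9 UMIs) in TA labelled WT. DMD over WT was 2.58-fold (1.24 to 6.02) in EOM and 8.25-fold (4.30 to 18.2) in TA. The 11 fibroblast markers summed in mural-like cells to 3194 CPM in EOM labelled DMD (8 counted), 1786 CPM in EOM labelled WT (7 counted), 3419 CPM in TA labelled DMD (11 counted) and 1711 CPM in TA labelled WT (7 counted). Pdgfra, Dpp4 and Smoc2 were at 0 in the mural-like cells of every library except TA labelled DMD. Their part in the C1s result was not tested. Serping1 had 281 and 234 CPM in mural-like cells of EOM labelled DMD and WT and 410 and 330 CPM in TA labelled DMD and WT. It was 1.24-fold (1.09 to 1.42) in TA, under the 2-fold used here. The clusters that made up this class differed between the TA libraries, since 4 clusters held the TA labelled DMD cells and 120 of the 179 TA labelled WT cells were in a single one. Within it, led by Kcnj8, Rgs5 and Vtn, C1s had 4 UMIs in EOM labelled DMD, 2 in EOM labelled WT, 47 in TA labelled DMD and 0 in TA labelled WT. In a second cluster, led by Ccl11, which encodes eotaxin, and Inmt, C1s had 264 CPM (40 UMIs) in EOM labelled DMD, 124 CPM (6 UMIs) in EOM labelled WT, 189 CPM (153 UMIs) in TA labelled DMD and 92.2 CPM (7 UMIs) in TA labelled WT. With each library clustered alone, the mural-like C1s difference in TA dropped to a log2 ratio of 0.58.

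In tenocyte-like cells C1s was higher in EOM. The level was 1048 CPM (947 to 1156) in EOM labelled DMD and 353 CPM in TA labelled DMD, 2.97-fold (2.48 to 3.55) where 4.96% of all genes were higher, while Serping1 had 604 and 681 CPM in the same libraries. The fibroblast markers summed to 49220 CPM in EOM labelled DMD and 21648 CPM in TA labelled DMD in this class, with 10 of 11 counted in each and Lamc3 at 0, and their part in the difference was not tested. Schwann-like cells, the glia of nerves, had 181 and 198 CPM of C1s and 282 and 255 CPM of Serping1 in EOM and TA labelled DMD. Within that class most of the C1s lay in a cluster with Mbp and Itgb4 among its leading genes, at 435 CPM in EOM labelled DMD (12 cells) and 521 CPM in TA labelled DMD (65 cells). That cluster also held markers of perineurial cells, which wrap nerve bundles, and of fibroblasts.

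Endothelial-like cells held little of either gene. Serping1 had 11.5 CPM (17 UMIs) in EOM labelled DMD, 5.0 CPM (7 UMIs) in EOM labelled WT, 36.9 CPM (167 UMIs) in TA labelled DMD and 4.67 CPM (18 UMIs) in TA labelled WT. TA labelled DMD stood apart from the other 3, and DMD over WT in TA was 7.91-fold (4.85 to 13.7). C1s had 47 UMIs in TA labelled DMD and 0 in TA labelled WT, which is at least 13.4-fold against a floor of 3 UMIs per library, with a lower counting limit of 10.4-fold. The fibroblast markers summed to 461 CPM in endothelial-like cells of TA labelled DMD and 122 CPM in TA labelled WT, with 10 and 7 of 11 markers counted. Lamc3 was at 0 in both, and Pdgfra, Smoc2 and Mfap5 were at 0 in TA labelled WT; their part in the result was not tested. With the level of the lowest class of each library taken off every class, the Serping1 log2 ratio dropped to 0.24. For C1s that subtraction says nothing, because endothelial-like cells were themselves the lowest class in both TA libraries. The endothelial-like clusters differed between the TA libraries, since the cluster led by Ca4 and Clic5 held 215 of the 1996 cells of TA labelled DMD and 865 of the 1558 cells of TA labelled WT. Within that cluster Serping1 had 29.6 CPM (15 UMIs) in TA labelled DMD and 0.899 CPM (2 UMIs) in TA labelled WT. In the 3 other endothelial-like clusters Serping1 had 60.1, 48.6 and 19.8 CPM in TA labelled DMD, against 25.9, 0 and 2.50 CPM in TA labelled WT in the same order. C1s was 22.0% of the C1s and Serping1 UMIs in endothelial-like cells of TA labelled DMD, against 50.3% in fibroblast-like cells of that library. An unnamed cluster led by Plvap, Selp and Vwf, genes of venular endothelium, held 830 cells in TA labelled DMD and 12 in TA labelled WT. In the 830 cells Serping1 had 145 CPM, Cfd 51.1 CPM and C1s 48.4 CPM. Fibroblast markers summed there to 2085 CPM (all 11 counted), mural markers to 1031 CPM and endothelial markers to 2764 CPM. In endothelial-like cells of that library these sums were 461, 127 and 7620 CPM. The part of these other markers in the levels of the 830 cells was not tested.

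C2 and the C4 genes, whose products together form the classical C3 convertase, were low and, except in TA labelled WT, sat mainly in fibroblast-like cells. C2 had 22.3 CPM (18.2 to 27.0, 103 UMIs) in EOM labelled DMD, 18.4 CPM (12.3 to 26.5, 29 UMIs) in EOM labelled WT and 86.7 CPM (76.6 to 97.7, 268 UMIs) in TA labelled DMD. The EOM libraries overlapped each other, and TA labelled DMD lay above both; EOM over TA labelled DMD was a log2 ratio of -1.58, in a class with 3.01% of all genes lower. At 1000 UMIs per cell, C2 was present in 2.79% and 1.36% of these cells in EOM labelled DMD and WT and 7.11% in TA labelled DMD. Different clusters made up the class in the 2 muscles. In TA labelled DMD, C2 had 118 CPM in the deeper cluster (216 cells, led by Apod and Myoc) and 55.7 CPM in the shallow one (1079 cells). In the main EOM cluster, led by Ces1d and Pi16, it had 22.4 CPM (569 cells) in EOM labelled DMD and 17.3 CPM (186 cells) in EOM labelled WT.

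C2 was also lower in EOM than in TA in 2 other classes of the libraries labelled DMD. Tenocyte-like cells had 1 UMI (2.63 CPM) in EOM and 32 UMIs (62.1 CPM) in TA, a log2 ratio of -2.51, where 7.98% of all genes were lower. Schwann-like cells had 4 UMIs (6.59 CPM) in EOM and 22 UMIs (31.3 CPM) in TA, a log2 ratio of -1.32, where 4.70% of all genes were lower, and it was -0.79, no longer called, with each library clustered alone. Both rest on few counts, and at 1000 UMIs per cell EOM held 0 UMIs in each class and TA 6 and 5. In macrophage-like cells C2 had 32.6 and 50.2 CPM in EOM labelled DMD and WT and 27.2 and 21.7 CPM in TA labelled DMD and WT, and EOM over TA labelled DMD was 1.20-fold, which was not called.

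C4b had 76.1 CPM (68.3 to 84.4, 352 UMIs) in fibroblast-like cells of EOM labelled DMD, 36.2 CPM (27.4 to 46.9, 57 UMIs) in EOM labelled WT and 87.0 CPM (76.9 to 98.1, 269 UMIs) in TA labelled DMD. DMD over WT in EOM was 2.10-fold (1.58 to 2.83), a log2 ratio of 0.90 with the prior of 10 CPM, just under the 2-fold used here. C4a had 22.7 CPM (105 UMIs) in EOM labelled DMD, 19.7 CPM (31 UMIs) in EOM labelled WT and 18.4 CPM (57 UMIs) in TA labelled DMD, and was 1.15-fold DMD over WT in EOM. Of the C4a and C4b UMIs together, C4b made up 77.0% (72.9 to 80.8) in EOM labelled DMD, 64.8% (53.9 to 74.7) in the WT library of EOM and 82.5% (77.9 to 86.5) in TA labelled DMD. The interval of EOM labelled WT overlapped that of EOM labelled DMD and lay below that of TA labelled DMD.

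C3, on which all routes converge, was counted in few cells. Macrophage-like cells had 44.9 CPM (62 UMIs) in EOM labelled DMD, 42.3 CPM (16 UMIs) in EOM labelled WT, 34.6 CPM (42 UMIs) in TA labelled DMD and 108 CPM (15 UMIs) in TA labelled WT, where 18 cells were present. EOM over TA labelled DMD was 1.30-fold, which was not called. The class was made of 2 clusters, and C3 lay in the one led by Lyz2, Tyrobp and Plac8, genes of monocytes and other myeloid cells. That cluster had 108 CPM (81.3 to 140) in EOM labelled DMD, 152 CPM in EOM labelled WT (12 cells), 130 CPM (90.7 to 179) in TA labelled DMD and 115 CPM in TA labelled WT (16 cells). The second cluster, led by MHC class II and C1q genes, had 8.02 and 13.4 CPM in EOM labelled DMD and WT and 6.41 CPM in TA labelled DMD. In fibroblast-like cells C3 had 42 UMIs in 686 cells of EOM labelled DMD, 2 in 231 cells of EOM labelled WT and 10 in 1412 cells of TA labelled DMD.

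Cfd, which encodes factor D, the protease that cuts factor B, lay mainly in the cluster led by MHC class II and C1q genes. The class had 2464 CPM (2382 to 2548, 3405 UMIs) in EOM labelled DMD, 1523 CPM (1401 to 1653, 576 UMIs) in EOM labelled WT, 582 CPM (706 UMIs) in TA labelled DMD and 195 CPM (27 UMIs) in TA labelled WT. Both EOM libraries lay above both TA libraries, although EOM labelled WT had 41 such cells and TA labelled WT 18. The cluster led by MHC class II and C1q genes held 29 of those 41 cells and only 2 of those 18. The part of this make-up in the Cfd levels was not tested. EOM over TA labelled DMD was 4.24-fold (3.90 to 4.60), in a class with 2.23% of all genes higher and 6.42% lower. Markers of other cells were lower in the macrophage-like cells of EOM labelled DMD than in those of TA labelled DMD. The erythroid markers summed to 112 CPM (4 of 6 counted) in EOM labelled DMD and 6655 CPM (5 of 6 counted) in TA labelled DMD, with Slc4a1 at 0 in both. The 9 myofibre markers summed to 235 CPM in EOM labelled DMD and 1697 CPM in TA labelled DMD, and the 12 macrophage markers to 17715 CPM and 13077 CPM in the same libraries, all of them counted. Their part in the Cfd, C6 and C1q differences between the muscles was not tested. In the cluster led by MHC class II and C1q genes, Cfd had 3806 CPM (3677 to 3937, 77 cells) in EOM labelled DMD, 1912 CPM (29 cells) in EOM labelled WT and 712 CPM (659 to 768, 439 cells) in TA labelled DMD. In the cluster led by Lyz2 and Plac8 it had 167 and 50.7 CPM in EOM labelled DMD and WT and 144 CPM in TA labelled DMD.

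Factor D counts were spread unevenly over the macrophage-like cells. At least 1 Cfd UMI was present in 59.4% of them in EOM labelled DMD (median depth 9643 UMIs), 65.9% in EOM labelled WT (7706), 27.5% in TA labelled DMD (1131) and 38.9% in TA labelled WT (6735.5). The share in endothelial-like cells was 1.79% in EOM labelled DMD (median depth 2556 UMIs) and 0.651% in TA labelled DMD (1691.5). The single highest cell held 183 and 126 Cfd UMIs in EOM labelled DMD and WT and 48 and 8 in TA labelled DMD and WT. At 1000 UMIs per cell the shares were 40.1% and 37.5% in EOM labelled DMD and WT and 25.8% and 11.1% in TA labelled DMD and WT, so the EOM shares stayed above the TA shares at equal depth. The clusters that made up the macrophage-like cells differed between these libraries, and their part in the shares was not tested. Outside macrophages, Cfd had 37.8 and 23.5 CPM in fibroblast-like cells of EOM labelled DMD and WT and 49.5 CPM in TA labelled DMD. In mural-like cells it had 40 UMIs in TA labelled DMD and 0 in TA labelled WT, at least 2.74-fold against the floor with a lower counting limit of 2.13-fold. The log2 ratio of 1.03 dropped to 0.82 at 1000 UMIs per cell. Macrophage markers summed in these cells to 145 and 52.0 CPM in TA labelled DMD and WT, and fibroblast markers to 3419 and 1711 CPM. Their part and that of the mural-like cluster make-up in the Cfd value were not tested.

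**Figure D4:**
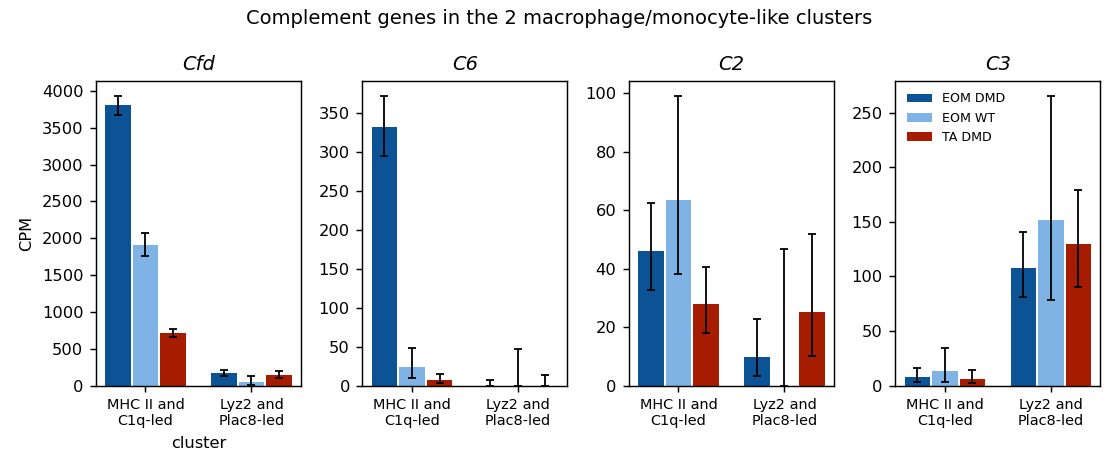
Levels of Cfd, C6, C2 and C3 (bars, CPM) in the 2 macrophage/monocyte-like clusters, 1 led by MHC class II and C1q genes and 1 by Lyz2 and Plac8, for EOM labelled DMD, EOM labelled WT and TA labelled DMD with 95% counting intervals. Cfd and C6 are higher in the first cluster and C3 in the second in each of the 3 libraries, with C6 at 0 UMIs in the second.

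C6, a terminal component, was counted mostly in macrophage-like cells of EOM labelled DMD. These cells had 209 CPM (186 to 235, 289 UMIs) there, 18.5 CPM (7 UMIs) in EOM labelled WT, 5.77 CPM (7 UMIs) in TA labelled DMD and 0 UMIs in TA labelled WT. EOM over TA labelled DMD was 36.3-fold (17.4 to 91.0). The 289 UMIs came from 30 of 138 cells, 21.7%, with at most 22 UMIs in a cell, and all 30 lay in the cluster led by MHC class II and C1q genes, where they were 39.0% of the cells. No endothelial-like cell of that library held a C6 UMI, 0 of 559 cells, which allows up to 0.537% of cells with a UMI at a median depth of 2556 UMIs and sets no limit on cells expressing the gene. At 1000 UMIs per cell, C6 was present in 9.49% of macrophage-like cells of EOM labelled DMD. In the cluster led by Lyz2 and Plac8, C6 had 0 UMIs in all 4 libraries, with a floor of 5.89 CPM in EOM labelled DMD and 10.8 CPM in TA labelled DMD.

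C7, the terminal component that follows C6 in the assembly, was counted in other cells than C6. Fibroblast-like cells had 192 CPM (179 to 205, 888 UMIs) in EOM labelled DMD, 99.8 CPM (84.8 to 117, 157 UMIs) in EOM labelled WT and 67.3 CPM (58.5 to 77.1, 208 UMIs) in TA labelled DMD. These intervals do not overlap, and EOM over TA labelled DMD was 2.85-fold (2.45 to 3.33), with 1.56% of all genes of this class higher. DMD over WT in EOM was 1.92-fold (1.62 to 2.29), a log2 ratio of 0.88. At 1000 UMIs per cell C7 was present in 15.5% and 6.82% of these cells in EOM labelled DMD and WT and 3.78% in TA labelled DMD. Different clusters made up the fibroblast-like class in the 2 muscles. The main EOM cluster held 569 of the 686 cells of EOM labelled DMD and 17 of the 1412 cells of TA labelled DMD. The part of this in the C7 difference was not tested. The mural-like level of C7 was 81.5 and 67.5 CPM in EOM labelled DMD and WT and 80.9 and 50.7 CPM in TA labelled DMD and WT, closer together than the fibroblast-like levels, and DMD over WT was 1.59-fold (1.14 to 2.28) in TA. Mural-like cells held 52.0% of the C7 UMIs in TA labelled DMD and 40 of 42 in TA labelled WT, against 28 of 187 in EOM labelled WT. The cluster led by Ccl11 and Inmt had 317 and 144 CPM of C7 in EOM labelled DMD and WT and 137 and 158 CPM in TA labelled DMD and WT.

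Across contrasts, a gene in a class was counted when it had at least 20 UMIs over both libraries. It was called higher or lower when it was at least 2-fold apart with a prior of 10 CPM and its counting interval excluded no difference. TA labelled DMD over WT had 11 pairs of a complement gene and a class, of which 6 were higher and 0 lower, where 12.8% of all gene and class pairs were higher and 3.0% lower. These 6 were C1s and Serping1 in endothelial-like cells, the same genes in erythroid-like cells, and C1s and Cfd in mural-like cells. In erythroid-like cells 92.8% of all genes counted were higher, with a median log2 ratio of 2.43, so the values there, 195 CPM of C1s and 197 CPM of Serping1 in TA labelled DMD against 0 and 1.06 CPM in TA labelled WT, are read against that background. The fibroblast markers in those cells summed to 5410 CPM (10 of 11 counted) in TA labelled DMD and 12.7 CPM (4 of 11 counted) in TA labelled WT. Lamc3 was at 0 in both, and Pdgfra, Dcn, Lum, Pi16, Smoc2 and Mfap5 were at 0 in TA labelled WT. The erythroid markers summed to 205788 CPM in TA labelled DMD and 643138 CPM in TA labelled WT, at median depths of 971.5 and 18255 UMIs. The part of the fibroblast markers, the erythroid markers and depth in the erythroid-like values was not tested. Without erythroid-like cells 4 pairs were higher. In endothelial-like cells 1.33% of all genes were higher and in mural-like cells 3.70%.

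EOM labelled DMD over WT had 14 pairs, of which 1 was higher, C1s in mural-like cells (4.22% of all genes there), and 0 lower, with 1.45% of all pairs higher and 1.17% lower. The 13 others included all 8 counted pairs in fibroblast-like cells, where folds ran from 1.07 (1.02 to 1.12) for C1s to 7.14 (1.86 to 60.9) for C3, which rests on 42 and 2 UMIs. All 8 of those folds were above 1, and all but that of Cfd stayed so at 1000 UMIs per cell, where the log2 ratio of Cfd was -0.48. Over the 10085 genes counted in the class the median log2 ratio was -0.0847. The share of all genes with a fold above 1 was not counted. The 8 folds come from the same 2 libraries and the same cells, so they are not separate observations. At the 2-fold used for a call, the class had 0.416% of all genes higher and 0.506% lower.

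EOM over TA labelled WT had 5 pairs, and none was called, with 1.12% of all pairs higher and 2.59% lower. C1s in satellite-like cells was 1.20-fold (0.968 to 1.504), and Serping1 was 0.953-fold there and 0.709-fold (0.556 to 0.899) in mural-like cells. C7 was 1.33-fold in mural-like cells and Serping1 1.07-fold in endothelial-like cells. These C7 values rest on 28 UMIs in EOM and 40 in TA.

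EOM over TA labelled DMD had 30 pairs over 8 classes, of which 4 were higher and 6 lower, with 2.51% of all pairs higher and 4.64% lower. The 4 higher were C7 in fibroblast-like, C1s in tenocyte-like, and C6 and Cfd in macrophage-like cells. The 6 lower were C2 in fibroblast-like, tenocyte-like and Schwann-like cells, Serping1 in endothelial-like cells (1.14% of all genes there), and C1s and Serping1 in macrophage-like cells. C1s had 10.9 CPM in macrophage-like cells of EOM labelled DMD and 50.3 CPM in TA labelled DMD, and Serping1 had 21.7 and 76.6 CPM. In those cells the fibroblast markers summed to 523 CPM in EOM labelled DMD and 2416 CPM in TA labelled DMD, with 10 of 11 counted in each and Lamc3 at 0, and their part in these 2 values was not tested. Serping1 in endothelial-like cells had a log2 ratio of -1.13, which turned to 0.53 with the level of the lowest class of each library taken off. The 4 contrasts share libraries with one another, so they are not independent.

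**Figure D5:**
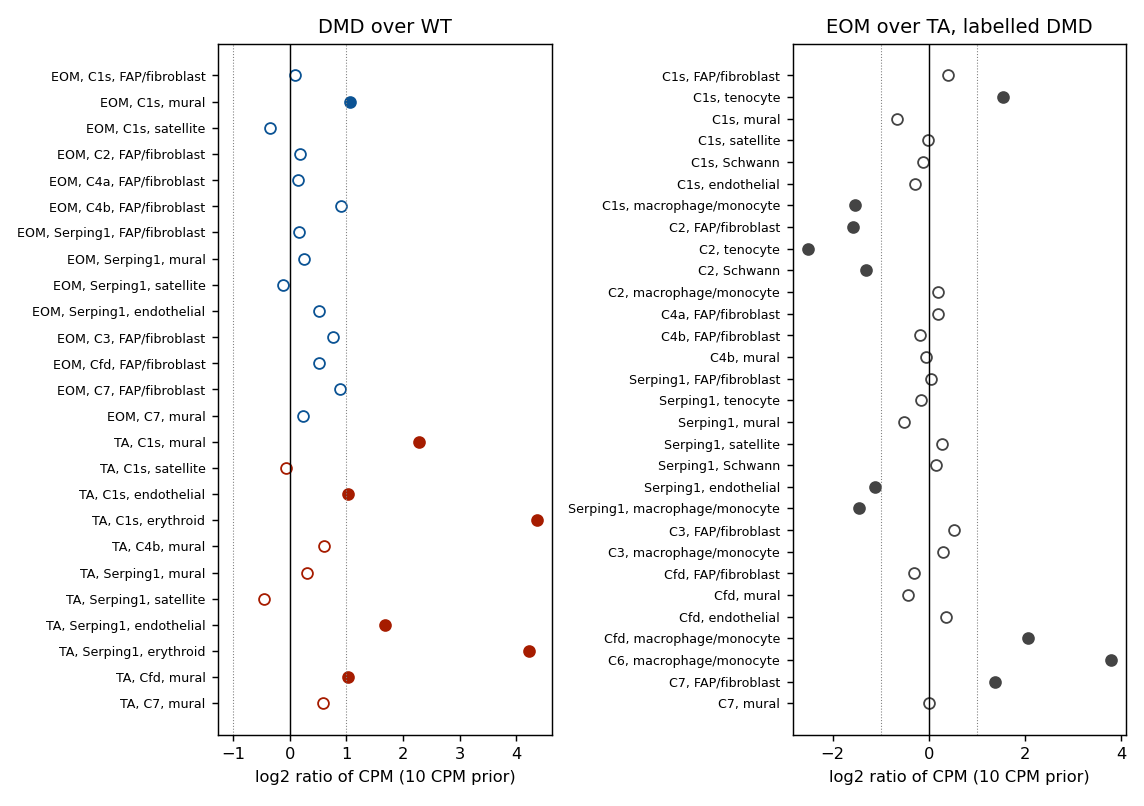
Log2 ratios with a prior of 10 CPM for every counted pair of a complement gene and a cell class, DMD over WT in each muscle on the left and EOM over TA labelled DMD on the right, with filled points for pairs called and open points for the others. The largest ratio outside erythroid-like cells is C6 in macrophage-like cells, EOM over TA labelled DMD, at 3.80.

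Of the other complement genes, 41 were found from lists by route. In EOM over TA labelled DMD, 7 of 75 counted pairs were higher and 17 lower, where 2.51% of all gene and class pairs were higher and 4.64% lower. The higher ones in macrophage-like cells included the C1q genes, which encode the recognition part of the first component: C1qa had 3934 CPM in EOM and 975 CPM in TA (4.04-fold), C1qb was 4.92-fold and C1qc 4.72-fold. Fcna, a ficolin of the lectin route, had 1267 CPM in EOM and 70.0 CPM in TA there. In the cluster led by MHC class II and C1q genes, C1qa had 6230 and 2791 CPM in EOM labelled DMD and WT and 1264 CPM in TA labelled DMD, the same order as Cfd.

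In the DMD over WT contrasts, 14 of 35 other pairs were higher and 1 lower in TA, where 12.8% of all pairs were higher and 3.0% lower. Of these 14, 7 were the 7 pairs counted in erythroid-like cells, where 92.8% of all genes were higher. In EOM 3 of 31 other pairs were higher and 1 lower, where 1.45% of all pairs were higher and 1.17% lower. Cfb, the factor B that factor D cuts, had 49.3 CPM in fibroblast-like cells of EOM labelled DMD and 12.1 CPM in EOM labelled WT, 4.08-fold (2.55 to 6.90). Clu, which encodes clusterin, a soluble inhibitor of the terminal complex, was higher in mural-like cells labelled DMD in both muscles. It had 277 and 44.4 CPM in TA labelled DMD and WT and 131 and 7.23 CPM in EOM labelled DMD and WT. The level in EOM labelled WT was below the prior of 10 CPM and rests on few UMIs. Vtn, which encodes vitronectin, was lower in mural-like cells of TA, with 1070 CPM labelled DMD and 3030 CPM labelled WT. The mural-like cluster led by Kcnj8, Rgs5 and Vtn held 254 of 1574 cells in TA labelled DMD and 120 of 179 in TA labelled WT. Another with Vtn among its leading genes held 737 cells of TA labelled DMD and 15 of TA labelled WT. The part of this make-up in the Vtn difference was not tested. By list, soluble regulators had 9 of 17 pairs higher and 1 lower in TA, members included, and membrane regulators 6 of 15 higher. Erythroid-like cells gave 4 of those 9 and 3 of those 6. Terminal genes had 2 counted pairs in TA and 3 in EOM, none called.

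Genes outside the complement lists with the most similar pattern were found over 30 points of class and library, among 4224 genes, by Pearson correlation of log2 CPM plus 10. These points share libraries and depth, and no test was made. C1s was most like Fkbp7 (r = 0.936), Mmp2 and Mxra8, and Serping1 most like Mmp14 (0.948), Col6a2 and Rarres2. C4b was most like Pdgfra (0.913), Sfrp4 and Scara5, C4a like Gdf10 (0.944), Scara5 and Osr1, C7 like LOC100911932 (0.926), Galnt16 and Pcdh18, and C2 like Vcan (0.866), Comp and Gpnmb. C3 was most like Ctss (0.956), Spi1 and RGD1563400, Cfd like Irf5 (0.895), Olr1 and Ctss, and C6 like Ccl12 (0.974), Cd209f and Siglec1. Among the members, C4a and C4b had r = 0.95, C3 and Cfd 0.91 and C1s and Serping1 0.88.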

How the data were processed

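Cells freed by enzymatic digestion of muscle went onto 10x Genomics 3' chemistry, version 3.1, per the labels' protocols. The authors deposited raw UMI counts per gene and barcode, which the file headers credit to Cell Ranger 4.0.0 and the submitters' processing notes to build rn6. The annotation was not given in the sources used here. Barcodes with under 200 genes or 500 UMIs or over 20% mitochondrial UMIs were left out, which kept 2303 of 3093 barcodes (EOM labelled DMD), 1262 of 1917 (EOM labelled WT), 8549 of 8944 (TA labelled DMD) and 2119 of 3550 (TA labelled WT). The automatic threshold of scrublet marked 30 of 14233 cells, too few for a working call, so the highest scores were removed up to 0.8% per 1000 cells, 676 in all. The libraries were clustered together on 2000 variable genes without the complement genes (30 components, 15 neighbours, Leiden resolution 1), giving 31 clusters. A cluster was named from marker lists of 22 cell types, with at least 3 markers at 2-fold and in 10% of its cells.

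For each class in each library, UMI counts were added up, and CPM are these sums over the summed total of the class. Intervals are exact Poisson for CPM, exact Clopper-Pearson for shares and conditional exact for folds, and cover counting error only, treating UMIs as independent. Where a library had 0 UMIs, folds used a floor of 3 UMIs per library. Shares at equal depth used cells thinned to 1000 UMIs, with 9733 cells deep enough. Log2 ratios used a prior of 10 CPM. A pair needed at least 20 UMIs over both libraries and 50 cells of the class in each. With 1 library a group there was no test. The counting was checked on simulated independent Poisson counts. These hold no variation between cells, clusters or animals and no free RNA, so the check does not cover those. The members, all complement lists, the markers and the comparisons were chosen with earlier results of these data known. Named beyond the members are complement genes called in a contrast or above 100 CPM in a class, and the 3 genes most like each member. Software was scanpy 1.11.5, scipy 1.17.1 and edgeR 4.0.16 (for trimmed mean of M values (TMM) factors only). Groups came from the disease state field. Results for some items are not reported here.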

Additional observations from a re-analysis of the deposited data

Results flagged for a closer look

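Vtn, which encodes vitronectin, moved opposite ways between the labels in satellite-like cells of the 2 muscles. DMD over WT was a log2 ratio of -1.85 in EOM, from 1 UMI labelled DMD and 22 UMIs labelled WT, and 1.15 in TA, from 25 UMIs labelled DMD and 3 UMIs labelled WT. The satellite-like clusters differed between the TA libraries, since the shallow one held 243 of the 305 cells of TA labelled DMD and 6 of the 56 cells of TA labelled WT. Mural markers summed in satellite-like cells to 734 and 496 CPM in TA labelled DMD and WT and 505 and 518 CPM in EOM labelled DMD and WT. Endothelial markers summed to 534 and 45.1 CPM in TA and 16.9 and 40.7 CPM in EOM, in the same order. The part of the clusters and of these markers in the Vtn values was not tested. The difference between the muscles was not tested, since each group has 1 library.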

How the results depend on the processing

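No paired analysis was possible because each group has 1 library and the labels give no replicate numbers. Of 14 alternatives, 12 planned and 2 chosen after seeing the data, all were run. Of the 17 called pairs, all 17 kept the call at Leiden resolution 0.5, without mitochondrial and haemoglobin genes in the totals and with TMM factors. All 17 also kept it with the Plvap and Selp-led cells counted as endothelial-like. That setting could change only the endothelial-like pairs, and the pairs of other classes were kept by construction. A prior of 1 CPM, no minimum of UMIs and a fold of 1.5 can only add calls, so all 17 were kept there by construction. The call was kept by 13 of 15 under the stricter cell filter, 16 with high scoring cells kept and 13 with each library clustered alone. It was kept by 16 with complement genes used for clustering, 11 at 1000 UMIs per cell and 14 with free RNA subtracted. Under that subtraction the C1s call in endothelial-like cells of TA is lost by construction, because that class is the lowest one. Nothing was taken off C2, C6 and C7 in the libraries labelled DMD, or off Cfd in TA. The lowest class there held no UMI of these genes. Calls of C2, C6, C7 and mural-like Cfd could thus change only through the totals, and keeping them says little about free RNA. Without erythroid-like cells the 15 pairs left keep the call by construction, since the other classes are unchanged. In TA, pairs higher in DMD than WT numbered 6, against 3 at 1000 UMIs per cell and 10 with no minimum of UMIs. In EOM they numbered 1, against 3 with TMM factors, 3 with a prior of 1 CPM, 2 with free RNA subtracted and 4 with a fold of 1.5. C4b in fibroblast-like cells of EOM passed 2-fold with TMM factors (log2 1.03), a prior of 1 CPM (1.05) and the stricter cell filter (1.11), and C7 with TMM factors (1.03) and at 1000 UMIs per cell (1.20). Serping1 in endothelial-like cells, EOM over TA labelled DMD, turned from -1.13 to 0.53 with free RNA subtracted. Cfd in mural-like cells of TA had log2 0.82 at 1000 UMIs per cell and 0.88 under the stricter filter. C1s in endothelial-like cells of TA had log2 0.78 under the stricter filter and 0.90 with each library clustered alone, against 1.03 as reported. The C2 difference in Schwann-like cells was -0.79 with each library clustered alone. The cause of these changes was not tested. TMM factors moved the TA erythroid-like ratios by -3.17. Classes under 50 cells and genes under 20 UMIs could not be compared at this depth, and differences between animals were not measured.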
